A study of Mus musculus with 2 samples.

Results

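The 10 genes described here belong to the growth hormone pathway of the liver: the receptor gene Ghr, the transcription factor genes Stat5a and Stat5b, the feedback inhibitor genes Socs2 and Cish, the repressor genes Bcl6 and Cux2, and the downstream genes Hsd3b5, Elovl3 and Mup3. They were chosen by symbol, as the probe sets that the platform annotation assigns to exactly 1 gene. Earlier results of these data were known when the genes were chosen. All 10 were found, out of 19938 genes named in this way, and together they had 11 probe sets. Expression was measured in hepatocellular carcinoma tissue of mice given DEN (diethylnitrosamine, a chemical that induces liver tumours). The wild-type group (WT, agent DEN) and the HLF-deficient group (agent DEN) had 1 array each; HLF, hepatic leukemia factor, is a PAR bZIP transcription factor. The allele, the cells that lack HLF, and the strain, sex and age of the mice are not given in the sources used here, nor are the hour of collection and the number of tumours or mice behind each array.

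Growth hormone binds a paired receptor at the hepatocyte surface and activates the kinase JAK2, which phosphorylates STAT5. Phosphorylated STAT5 enters the nucleus as a dimer and switches on genes that include its own inhibitors, CIS (from Cish) and SOCS2, which act back on the receptor. In male rodents the hormone arrives in pulses and in females almost continuously, and this difference sets the sex-biased expression of many liver genes. BCL6 is a repressor more abundant in male liver, where it acts on female-biased genes, whereas CUX2 is a repressor of female liver that acts on male-biased genes.

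STAT5 dimers bind the palindrome TTCNNNGAA, where N is any base, and BCL6 is known to bind sequences that overlap it. The promoter windows of RefSeq, of 250 bases before and 50 bases after each annotated start on assembly GRCm38.p6, were searched for these letters on both strands. Windows matched by symbol for 8 of the 10 genes, 13 windows in all; Socs2 and Elovl3 were not among them. Of these genes, only the windows of Bcl6 and Cish held a match. Those 2 genes also had the largest positive differences between the tumours among the 10, which is the reason their sequences are shown. Whether the matches bear on these differences was not tested. The first 2 lines give the 250 bases before each annotated start of Bcl6, at chr16:23981284-23981533 and chr16:23988853-23989102 on the minus strand, and the third gives 30 bases around the start of Cish at chr9:107296654-107296683 on the plus strand. Each is written 5′ to 3′, with the letters that match the STAT5 palindrome in capitals.
Bcl6, downstream start: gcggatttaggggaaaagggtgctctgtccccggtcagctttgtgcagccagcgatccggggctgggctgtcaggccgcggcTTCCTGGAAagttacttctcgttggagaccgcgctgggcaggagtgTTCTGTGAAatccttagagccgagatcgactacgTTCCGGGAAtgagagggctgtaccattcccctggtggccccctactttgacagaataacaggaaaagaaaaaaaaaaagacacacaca
Bcl6, upstream start: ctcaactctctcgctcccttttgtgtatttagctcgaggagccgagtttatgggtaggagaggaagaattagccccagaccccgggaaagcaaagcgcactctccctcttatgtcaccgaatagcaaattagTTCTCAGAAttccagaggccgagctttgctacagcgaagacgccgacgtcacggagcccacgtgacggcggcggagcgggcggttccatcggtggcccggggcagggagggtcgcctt
Cish, start: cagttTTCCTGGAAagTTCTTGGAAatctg

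The downstream start of Bcl6 had 3 matches, at bases -168 to -160, -122 to -114 and -88 to -80 from the start. Its upstream start had 1, at -118 to -110. In Cish the 2 matches lay at bases 1 to 9 and 12 to 20, just after the start. Of all 32851 RefSeq windows of this length, 8.30% held at least 1 match, 0.457% at least 2 and 0.0335%, or 11 windows, at least 3. Among the genes compared between the tumours, Stambpl1 and Zfp93 were the other 2 with 3 matches in a window, and their differences were 0.34 and 0.07. Of 871 compared genes with 1 match at most in a window, 1.49% were higher by 2-fold and 0.459% lower. For the 10614 genes with 0 matches these shares were 1.39% and 0.311%. Of 50 genes with 2 matches, 3 were higher by 2-fold and 1 lower. The letters TTATGTAA and TTACGTAA, which PAR bZIP factors such as HLF bind, were in none of the 13 windows and in 1.06% of all windows. A match describes the letters of the reference genome and does not show that a factor was bound in these tumours.

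**Figure D1:**
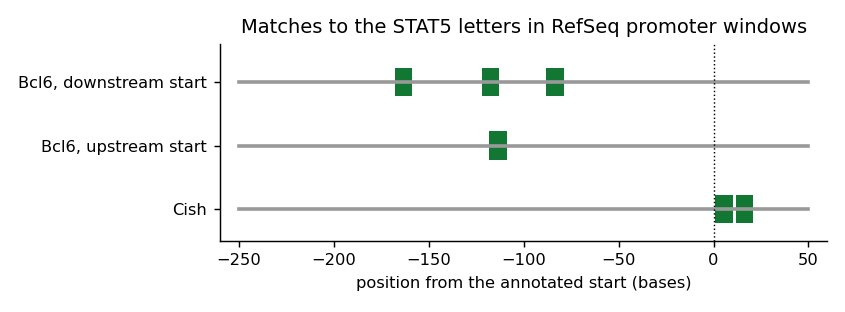
Positions of the TTCNNNGAA letters (green) in the RefSeq promoter windows of Bcl6 and Cish, in bases from the annotated start (dotted line). The downstream start of Bcl6 has 3 matches, its upstream start 1 and Cish 2.

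Levels are the deposited log2 values. A difference is the HLF-deficient value less the WT value, so that a log2 difference of 1 is 2-fold. With 1 array per genotype there is no replicate check, no test between genotypes can be made, and precision is limited by the number of arrays: every difference is between 2 tumour samples. As a guide to technical spread, 717 genes with at least 2 probe sets above the floor had the differences of their top 2 set against each other, which gave an SD of 0.23 for a single probe set and covers neither mice nor tumours. The floor of expression was put at 2.97, the 95th percentile of 1248 probe sets for taste, vomeronasal and olfactory receptors, which liver does not use, and 14601 genes reached it on at least 1 array. The targeted gene Hlf had levels of 5.13 in the WT tumour and 3.79 in the HLF-deficient one, which is -1.34, in the direction of the labels; the HLF-deficient value was still above the floor. The tissue carried hepatocyte genes: all 11 measured hepatocyte markers were above the floor in both tumours, Alb at 12.55 and 12.41, and their differences lay between -0.15 and 0.16.

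All 10 genes were above the floor in both tumours, and 1 of them, Bcl6, differed by 2-fold or more. It was higher in the HLF-deficient tumour, as were 1.5% of the 14601 genes at this threshold; 0 of the 10 were lower by 2-fold, against 0.363% of all genes. At 1.5-fold, Stat5b and Cish were also higher and Cux2 was lower. That made 3 of 10 higher against 6.37% of all genes, and 1 of 10 lower against 3.12%. Of these, the calls of Bcl6 and Cish held under each scaling tried and those of Stat5b and Cux2 did not. With the arrays centred, Cux2 came inside 1.5-fold, which left 3 higher against 11.4% of all genes and 0 lower against 1.37%. After quantile normalization Stat5b came inside 1.5-fold and Elovl3 passed it, which gave 2 higher against 5.11% and 2 lower against 2.41%. Removal of the loess trend gave the same 2 higher, Bcl6 and Cish, against 5.33%, and the same 2 lower, Cux2 and Elovl3, against 2.22%. In all, 7 of the 10 had positive values, against 58.2% of all genes, and their median of 0.16 stood beside one of 0.07 for all genes. The genes did not share a direction: the receptor, STAT5 and feedback genes, Bcl6 and Hsd3b5 had values of 0.11 or more, while Cux2, Elovl3 and Mup3 were between -0.68 and -0.51.

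**Figure D2:**
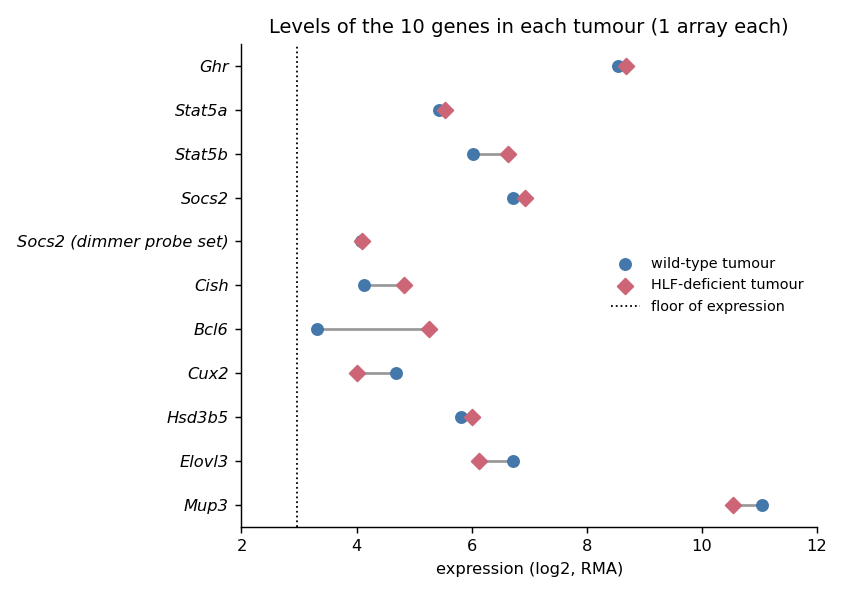
Levels (log2, RMA) of the 11 probe sets of the 10 genes in the wild-type tumour (blue circles) and the HLF-deficient tumour (red diamonds), 1 array each, with the floor of 2.97 as a dotted line. Values compare along a line only, since probe sets of different genes differ in brightness; Bcl6 spans the widest distance, from 3.32 to 5.26.

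Ghr, the receptor gene, had levels of 8.55 in the WT tumour and 8.69 in the HLF-deficient one. The difference of 0.14 was smaller than the SD of a single probe set, and 70.4% of all genes were at least as far apart in either direction. JAK2, the kinase bound to this receptor, is encoded by Jak2, whose levels were 5.53 and 6.25, or 1.64-fold higher in the HLF-deficient tumour, a difference that came inside 1.5-fold after quantile normalization and with the loess trend removed. Stat5a had levels of 5.43 and 5.54, a difference of 0.11, again within the probe set SD. Stat5b, the STAT5 gene on which growth hormone responses of male liver chiefly depend, had levels of 6.02 and 6.63 and was 1.52-fold higher in the HLF-deficient tumour. Stat5a and Stat5b are close in sequence, and 1 probe set may detect both.

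Of the feedback inhibitors, Cish was past 1.5-fold and Socs2 was not. Cish, a rapidly induced STAT5 target whose product blocks STAT5 docking sites on cytokine receptors, had levels of 4.12 in the WT tumour and 4.83 in the HLF-deficient one. That is 1.63-fold, and 3.92% of all genes had a positive difference at least as large. Socs2, which encodes part of a ubiquitin ligase that removes the receptor, had levels of 6.72 and 6.93 in its brighter probe set, a difference of 0.21. Its dimmer probe set read 4.09 in both tumours. Neither probe set of Socs2 was therefore apart by more than the SD of a single probe set.

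Bcl6 had the largest difference of the 10 genes. Its level was 3.32 in the wild-type tumour, just over the floor, and 5.26 in the HLF-deficient tumour, which is 3.83-fold. It ranked 34th of 14601 genes among positive differences. With a stricter floor at the 99th percentile of the receptor probe sets, 3.78, the wild-type level was not above the floor, and the difference is then given only as at least 2.79-fold. Bcl6 is also expressed by lymphocytes, macrophages and other cells. In bulk tissue, more cells of a type and more RNA per cell cannot be told apart.

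Cux2, the repressor of female liver, had the opposite sign. Its level was 4.69 in the WT tumour and 4.004 in the HLF-deficient one, 1.61-fold lower, and 1.60% of all genes had a negative difference at least as large. Both values were above the floor of 2.97. The opposite signs of Bcl6 and Cux2 held under each scaling tried, though with the arrays centred Cux2 was at -0.56 and inside 1.5-fold.

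The downstream genes are targets of pulsatile growth hormone and male-biased in mouse liver. Hsd3b5, a hydroxysteroid dehydrogenase gene of male liver, had levels of 5.82 in the WT tumour and 5.997 in the HLF-deficient one, 0.18 apart. A pair of probe sets that name Hsd3b5 together with Hsd3b4 and Gm10681 lies outside the rule and read 4.98 and 5.55 each. Elovl3, an elongase of very long chain fatty acids, had levels of 6.72 and 6.13 and was 1.499-fold lower, just inside the 1.5-fold threshold. Mup3, one of the major urinary proteins that carry pheromones, had levels of 11.05 and 10.54, 1.42-fold lower. Of these 3 male-biased genes, 1 thus read slightly higher and the other two lower in the HLF-deficient tumour, all by less than 2-fold. The genes of the Mup and Hsd3b families are alike in sequence, so that each value may hold signal of relatives.

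**Figure D3:**
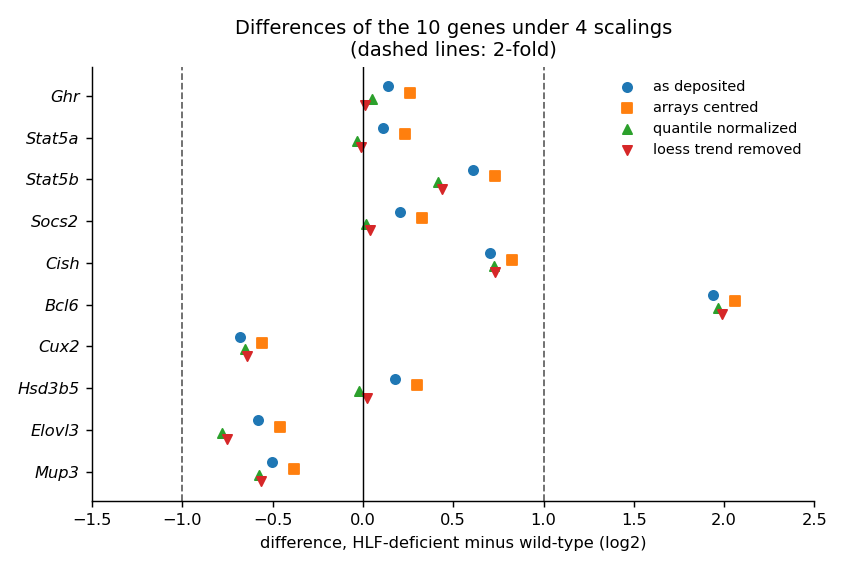
Log2 differences (HLF-deficient minus wild-type) of the 10 genes with the values as deposited and under 3 other scalings; dashed lines mark 2-fold. Bcl6 lies between 1.94 and 2.06 throughout, and the signs of Stat5a and Hsd3b5 turn under quantile normalization, that of Stat5a also with the loess trend removed.

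Scaling moved the small differences across 0 but no large one. Signs agreed under the deposited values, centring of each array, quantile normalization and removal of a loess trend for 8 of the 10 genes. Stat5a was at -0.03 and Hsd3b5 at -0.02 after quantile normalization, and Stat5a was at -0.01 with the loess trend removed. Ghr and Socs2 came down to 0.05 and 0.02 after quantile normalization. Stat5b ranged from 0.41 to 0.73, Cish from 0.71 to 0.83, Cux2 from -0.68 to -0.56, Elovl3 from -0.78 to -0.46 and Mup3 from -0.57 to -0.38.

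The other genes of the pathway were read from lists that were drawn up with earlier results of these arrays known, so their counts describe these tumours and are no independent evidence. Of 13 genes of signalling near the receptor, 12 had a probe set of their own (kinase, adaptors, phosphatases and related receptors), and 0 of these differed by 2-fold, a threshold that few genes passed (1.5% higher and 0.363% lower of all genes); 11 had positive values as deposited, with a median of 0.15, which was -0.02 after quantile normalization. After Jak2, the largest value established on both arrays was that of Sirpa, a membrane protein that recruits phosphatases, at 0.58. Lepr, the leptin receptor gene, did not reach the floor in the WT tumour, at 2.36, and was at 3.03 in the other, which bounds the change only at 1.04-fold or more. Ptpn11, the gene of the phosphatase SHP-2, was level at 6.74 and 6.73.

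Among the other STAT genes, Stat3, which carries interleukin-6 signals in hepatocytes, had levels of 7.50 and 8.28, 1.72-fold higher in the HLF-deficient tumour. Stat2 and Stat6 were at 0.34 and 0.31, and Stat4 was below the floor on both arrays. Among the other SOCS genes, Socs3, the feedback inhibitor of STAT3 signalling, had levels of 4.94 and 5.74 in its brighter probe set, 1.75-fold higher, but 4.71 and 4.57 in its dimmer one. The 2 probe sets of Socs3 thus disagreed in sign. Socs4, Socs7 and Socs6 were at 0.44, 0.19 and 0.06, and Socs1 and Socs5 at -0.13 and -0.07; Socs5, Socs6 and Socs1 were all between -0.14 and -0.11 after quantile normalization. None of the STAT or SOCS genes measured differed by 2-fold.

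Products of the growth hormone axis did not share a direction. Igf1, the main growth hormone-dependent secreted factor of liver, had levels of 9.36 in the WT tumour and 8.85 in the HLF-deficient one, 1.42-fold lower. Igfbp3, which encodes the chief carrier of IGF1 in blood and is made in liver largely by cells other than hepatocytes, had levels of 5.86 and 8.12 and was 4.81-fold higher. Igfals, the gene of the subunit that joins both in the circulating complex, was at 6.89 and 6.81. Egfr, a receptor gene of hepatocytes that needs growth hormone for full expression, was at 9.07 and 9.32. Igfbp3 was the only 1 of these 4 genes beyond 2-fold.

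Of 12 other regulators of sex-biased liver genes or partners of STAT5, 0 differed by 2-fold, and with the shares of all genes at this threshold a count of 0 in so short a list describes little. Cebpb, a bZIP factor of the acute phase, was at 0.69 and Nr0b2, the repressor SHP, at 0.54, and the lowest were Nr1i3, the nuclear receptor CAR, at -0.20 and Foxa1, a pioneer factor, at -0.09. Onecut1, a regulator known to act with STAT5 in female liver, was at 0.26, and Hnf4a, which sustains hepatocyte expression, at 0.12.

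Other sex-biased liver genes were read from lists of the same kind, and their differences were not tied to growth hormone or STAT5 by any measurement here. Of 25 male-biased genes listed, 21 had a probe set of their own. Among these, Cyp7b1, an oxysterol hydroxylase gene, was the only 1 beyond 2-fold, with levels of 7.70 and 9.35; 1.5% of all genes were higher at this threshold. Next came the fatty acid hydroxylase gene Cyp4a12a at 0.88, which passed 2-fold at 1.002 with the arrays centred. At 1.5-fold, 6 of 21 were higher against 6.37% of all genes, and this fell to 3 after quantile normalization or removal of the loess trend. The only 1 lower by 1.5-fold, against 3.12% of all genes, was Mup21, another major urinary protein gene, with levels of 8.55 and 7.69. Gna14, a G protein subunit gene, was second lowest at -0.48. The median of the male-biased genes was 0.11 beside 0.07 for all genes, and -0.01 after quantile normalization.

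The female-biased genes were spread more widely. Of 28 listed, 22 had a probe set of their own and 21 reached the floor. Of these 21, 6 were lower and 3 higher by 2-fold in measured values, against 0.363% and 1.5% of all genes, and their median was -0.28. Sult3a1, a sulfotransferase gene, went from 6.30 in the WT tumour to 2.09, under the floor, and was lower by at least 10.1-fold. Slc22a26, an organic anion transporter gene, was 6.09-fold lower, the peroxisomal oxidase gene Hao2 4.94-fold, the hepcidin-type gene Hamp2 4.59-fold and the cytochrome gene Cyp2b9 3.16-fold. Cyp3a16 did not reach the floor in the HLF-deficient tumour, and only a bound of at least 1.22-fold holds, which leaves 5 lower by 2-fold. Slc22a27, next to them in size, was at -0.998 and just inside the threshold. Higher were Cyp17a1, a steroid hydroxylase gene, by 2.53-fold, Fmo2, a flavin monooxygenase gene, by 2.10-fold and Prom1, a progenitor marker, by 2.02-fold; Fmo2 and Prom1 were at 0.94 and 0.87 after quantile normalization. Several of these genes, among them Sult3a1, Slc22a26 and Hamp2, were on the list with their earlier result known.

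**Figure D4:**
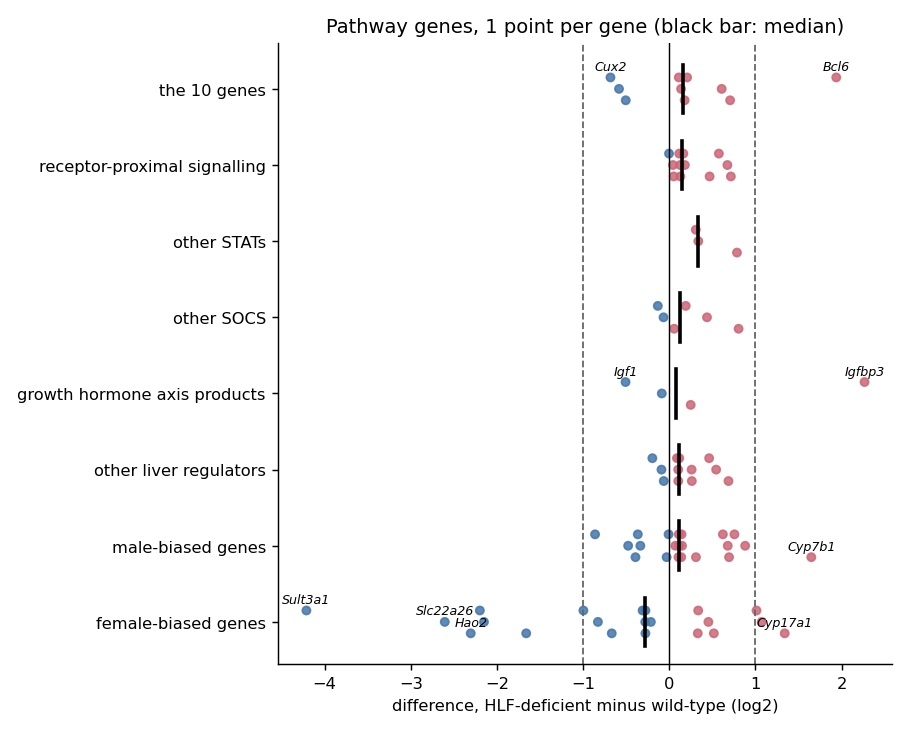
Log2 differences (HLF-deficient minus wild-type) of the 10 genes and of 7 lists of related genes, 1 point per gene above the floor on at least 1 array, with list medians as black bars and 2-fold as dashed lines; Sult3a1 and Cyp3a16 are under the floor in the HLF-deficient tumour, so their measured values overstate what is known. Bcl6, Igfbp3, Cyp7b1, Cyp17a1, Fmo2 and Prom1 lie above 2-fold, and the negative differences beyond 2-fold are all female-biased genes.

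The sex of the mice is not labelled, but by the genes that follow both samples read as male. The Y-linked genes Eif2s3y, Kdm5d and Uty were above the floor on both arrays, at 6.52 and 6.49, 4.49 and 4.59, and 4.49 and 5.06, and Xist, which is expressed from the inactive X of females, was below it at 1.64 and 1.68. Relatives of the downstream genes stayed inside 2-fold with the values as deposited. Among the elongases, Elovl6 was at -0.61 and Elovl7 at 0.88, which passed 2-fold at 1.01 with the arrays centred, while Elovl2, Elovl5 and Elovl1 were at -0.26, -0.02 and 0.09 and Elovl4 was below the floor. Among the hydroxysteroid dehydrogenases, Hsd3b2, Hsd3b7 and Hsd3b3 were at 0.35, 0.16 and 0.03 and Hsd3b6 at -0.46, and Hsd3b1 was below the floor. Of 20 Mup genes listed beside Mup3, 18 had no probe set of their own, so most of this family was not measured. Mup21 was at -0.86 and Mup5 at -0.13, and a probe set that names Mup6, Mup16 and other copies together was at -0.36.

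Markers of other liver cells are given with the values as deposited, where 58.2% of all genes had positive differences. Of 8 macrophage markers, 6 had higher values in the HLF-deficient tumour and all were above the floor on both arrays; Cd14 and Cd68, both of phagocytes, were 3.62-fold and 2.88-fold higher, and the summed linear level of the list was 609 in the WT tumour and 882 in the HLF-deficient one. Of 8 endothelial markers, 5 had higher values, a share close to that of all genes, with sums of 689 and 879 and Lyve1 2.31-fold higher, while Clec4g, of sinusoidal endothelium, was at -0.76. Of 8 stellate cell and fibroblast markers, 7 had higher values, with sums of 636 and 755. Hepatocyte markers summed to 39257 and 39563.

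Several markers of lymphocytes and neutrophils did not reach the floor. Of 7 measured T and NK cell markers, 5 reached the floor, with sums over all 7 of 80.3 and 71.6, and the defining gene Cd3d was below the floor on both arrays, while Cd3e was at 4.63 and 4.20. Of 5 B and plasma cell markers, 3 reached it, with sums over all 5 of 85.8 and 81.4, and Cd79a and Ms4a1 were below it on both arrays. Of 6 neutrophil markers, 3 reached it, with sums over all 6 of 68.9 and 59.0. The receptor chains of blood cells that also signal through STAT5 reached the floor in 5 of 8 cases, with differences between -0.14 and 0.25. As deposited, the medians of macrophage, endothelial and stellate markers were positive, as were 7 of the 10 genes and 58.2% of all genes. Clec4f (-0.37) and Vsig4 (-0.36), markers of Kupffer cells, were negative. The median of T and NK cell markers was -0.05, or 0.10 after quantile normalization. The part of these cells in the differences of the 10 genes was not tested.

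**Figure D5:**
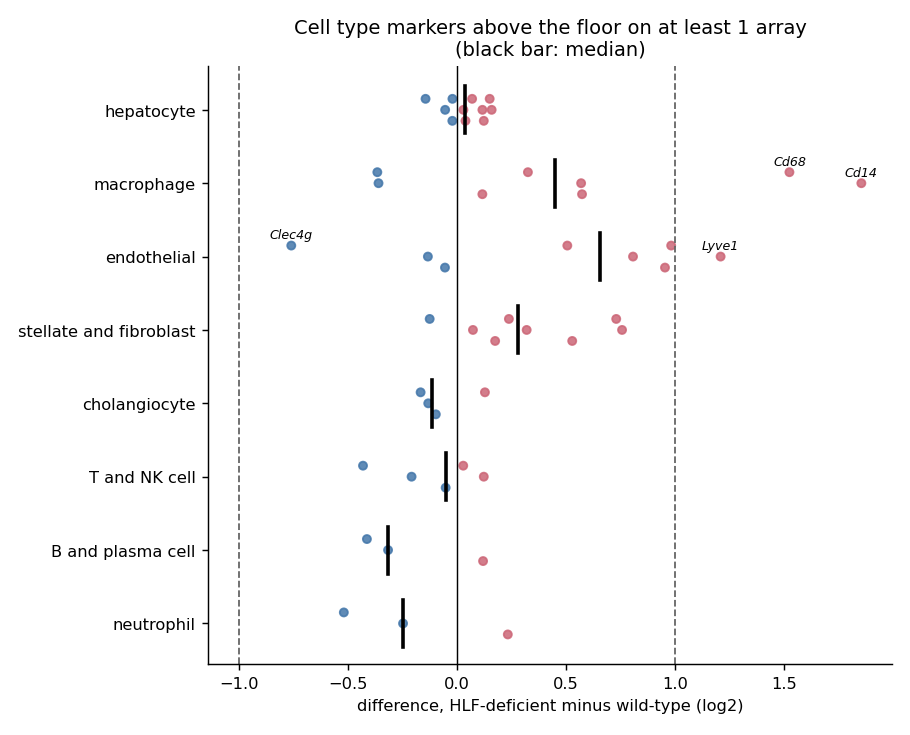
Log2 differences (HLF-deficient minus wild-type) of cell type markers above the floor on at least 1 array, 1 point per gene, with list medians as black bars and 2-fold as dashed lines. Hepatocyte markers lie within 0.16 of 0, and the medians of macrophage, endothelial and stellate markers are 0.45, 0.66 and 0.28.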

How the data were processed

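Expression was measured on 1 array per genotype. The deposited values are log2 expression per probe set, made by the authors with RMA in Affymetrix Expression Console, per the submitters' processing notes; the log2 scale was read from the values, and no version is given there. RMA compresses differences near background. The arrays correlated at r = 0.986 over 35556 probe sets, which are not independent replicates.

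The platform annotation gave the names: 21789 probe sets name 1 gene and were used, 1621 name several and 12146 name none. The brightest probe set stood for a gene. Genes that reached the floor in either tumour were compared by the log2 difference and a 2-fold rule. Named genes are the 10 genes, Hlf, and from each list those beyond 2-fold, or else up to 2 in each direction; relatives in the STAT, SOCS, Hsd3b and Elovl families are named in full, and others were chosen after their values were seen. The genes and lists were chosen with earlier results of these data known. Likeness of pattern was not ranked, because 2 arrays give only 1 difference. Python 3.11.15 was used. The procedure was tested on simulated data with known changes and no added noise. That checks the arithmetic and not the precision of 1 array per genotype.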

Additional observations from a re-analysis of the deposited data

How the results depend on the processing

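Under the 3 other scalings the differences of all 10 genes moved by less than the probe set SD of 0.23, and Bcl6 was beyond 2-fold at 1.94 to 2.06. The floor settings left these measured differences as they were, and averaging probe sets moved that of Socs2 alone. With the floor at the 99th percentile, 3.78, the difference of Bcl6 is known only as at least 2.79-fold. Counts moved by more than 1.5 times as follows. With the arrays centred, 32 of all genes were lower by 2-fold in place of 53, and 2 male-biased genes were higher in place of 1. After quantile normalization or removal of the loess trend, 1 female-biased gene was higher in place of 3. A 1.5-fold rule gave 3 of the 10 genes higher and 1 lower, 930 of all genes higher and 456 lower, 6 male-biased genes higher and 1 lower, and 2 genes near the receptor higher in measured values, Jak2 and Lepr; with values set to the floor only Jak2, 1 gene, remained. The 1.5-fold rule was also repeated under each scaling, a repeat that was chosen after seeing the data. With the arrays centred, 0 of the 10 genes were lower, 1665 of all genes higher and 199 lower, and 4 genes near the receptor higher. After quantile normalization or removal of the loess trend, 2 of the 10 genes were lower, 3 male-biased genes higher, and 1 gene near the receptor, Lepr in measured values, higher. A 4-fold rule gave 27 of all genes higher and 9 lower, and 0 higher for the 10 genes, the male-biased and the female-biased genes. Averaging the probe sets of a gene, floors at the 90th and 99th percentiles, no floor, and values set to the floor kept the counts at 2-fold within 1.5 times and the list medians within the probe set SD. Centring adds 0.12 to every difference, and moves the median of all genes from 0.07 to 0.20. No paired analysis was possible because each genotype had 1 array. Nothing here measures the spread between mice or tumours.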
